A study of Mus musculus with 20 samples.

Results

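The IL-12, IL-27 and interferon-gamma axis was followed here through 9 genes: *Ifng*, *Ifngr1*, *Ifngr2*, *Il12a*, *Il12rb1*, *Il12rb2*, *Il27ra*, *Stat4* and *Il2rb*. They were taken by gene name, which gave 9 of the 31093 gene names and 12 of the 39429 non-control probes of the array. Peripheral blood RNA was measured on 20 one-colour arrays in 4 groups of 5 from male mice: mice labelled WT and mice labelled Il10-/-, each sham-irradiated (0 Gy) or exposed to 7 Gy of whole-body X-rays, with blood taken 24 h later. The mice were littermates of 8 to 10 weeks from heterozygous crosses, the WT animals being C57BL/6 and the Il10-/- animals carrying the germline B6.129P2-Il10tm1Cgn/J allele, which is not restricted to a cell type. Blood came from cardiac puncture and was depleted of globin transcripts, and no blood cells were separated before RNA was made.

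Interferon-gamma is the main macrophage-activating cytokine of NK cells and Th1 cells, and it signals through a receptor made of the *Ifngr1* and *Ifngr2* chains. IL-12, a heterodimer with the *Il12a* product as one chain, acts through the *Il12rb1* and *Il12rb2* chains and the transcription factor Stat4 to drive interferon-gamma production. IL-27 acts through *Il27ra* with the shared chain gp130, and *Il2rb* encodes the receptor chain that IL-2 and IL-15 share on T cells and NK cells. IL-10 restrains the cells that make IL-12.

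Levels below are log2 intensities scaled to 1 reference array, and a difference of 1 is a doubling. They compare arrays for 1 probe and not 1 gene with another. A gene was called at a limma p below 0.001 if its Benjamini-Hochberg adjusted p, over 16575 tested probes, also stayed under 10%. In whole blood, fewer cells of a type and less RNA per cell cannot be told apart.

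The probes are shown because 3 genes were measured at 2 places each, and the 2 readings did not always behave alike. The first 30 of 60 bases are printed, 5′ to 3′, in lower case as no base is singled out, with positions in mouse build mm9. The exon or untranslated region they fall in was not looked up, as an mm9 annotation was not used here.
*Il2rb*, main probe, chr15:78309771-78309830, minus strand: ggattcagttctctttcaatgatctgtgca
*Il2rb*, second probe, chr15:78311109-78311168, minus strand: gtctattctggggtgggtttttctgtgaag
*Il12rb1*, main probe, chr8:73345261-73345320, plus strand: agtttccctattagagtattgggcacttaa
*Il12rb1*, second probe, chr8:73343240-73343299, plus strand: tttatccatcattttcgcgtctctgggaag
*Il12rb2*, main probe, chr6:67242256-67242315, minus strand: atatttctctttccatttttgcatcaagtt
*Il12rb2*, second probe, chr6:67242012-67242071, minus strand: taaggtggcaatacaccaacactgatatca
*Ifng*, single probe, chr10:117882841-117882900, plus strand: cttccctatacagctgaaaactgtgactac

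The targeted gene and the array quality bear on every value below. The *Il10* probe was brighter in the mice labelled Il10-/-, by 4.01 (SE 0.39, limma adjusted p = 0.00168) at 0 Gy, where it was well above background on 1 of 5 WT arrays. At 7 Gy it was well above background on 0 of 5 WT arrays, which gives a bound of at least 19.8-fold (limma adjusted p = 0.000585). Its place relative to the altered stretch of the gene was not established here. Every genotype direction therefore rests on the labels. Between 29.9 and 57.8% of spots were well above background on an array, with 29.9% on replicate 5 and 38.5% on replicate 4 of the unirradiated WT group, whose other arrays had 47.2% or more. The irradiated Il10-/- group also held arrays of low signal, with 34.6% on replicate 3, 39.0% on replicate 4 and 41% on replicate 5. The 2 weak arrays named below are those of the unirradiated WT group. Leaving out both of these was chosen after the data were seen, and those values are given where they matter. Arrays of the irradiated Il10-/- group were left out only 1 at a time. Replicates 1 and 2 differed least from each other in every group, although nothing in the labels ties them. Whether they are separate mice is not stated in the labels, and if they are repeats of 1 sample each group holds 4 independent samples. With them averaged, calls over all probes fell from 1828 to 850 with dose in WT and from 1858 to 913 in Il10-/- mice. Each of the 5 slides carried 1 array of every group.

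Of the 9 genes, 8 passed the background filter and 6 also varied enough to be tested, namely *Ifng*, *Il12rb1*, *Il12rb2*, *Il27ra*, *Stat4* and *Il2rb*. After 7 Gy, *Il2rb* rose in the mice labelled Il10-/-, and it was the single gene of the 6 that was called in that comparison, where 11.2% of all tested probes were called. With *Il27ra* it was also one of 2 genes with an unadjusted p under 0.05, as 37.2% of all tested probes had. In the mice labelled WT, 0 of the 6 were called by limma and 2 had an unadjusted p under 0.05, while 11% of all tested probes were called and 38% had such a p. Between the genotypes 0 of the 6 were called at either dose, where 0.525% of all tested probes were called at 0 Gy and 0.0241% at 7 Gy. Unadjusted p was under 0.05 for 3 of the 6 at each dose, against 19.6% and 13.2% of all tested probes.

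**Figure D1:**
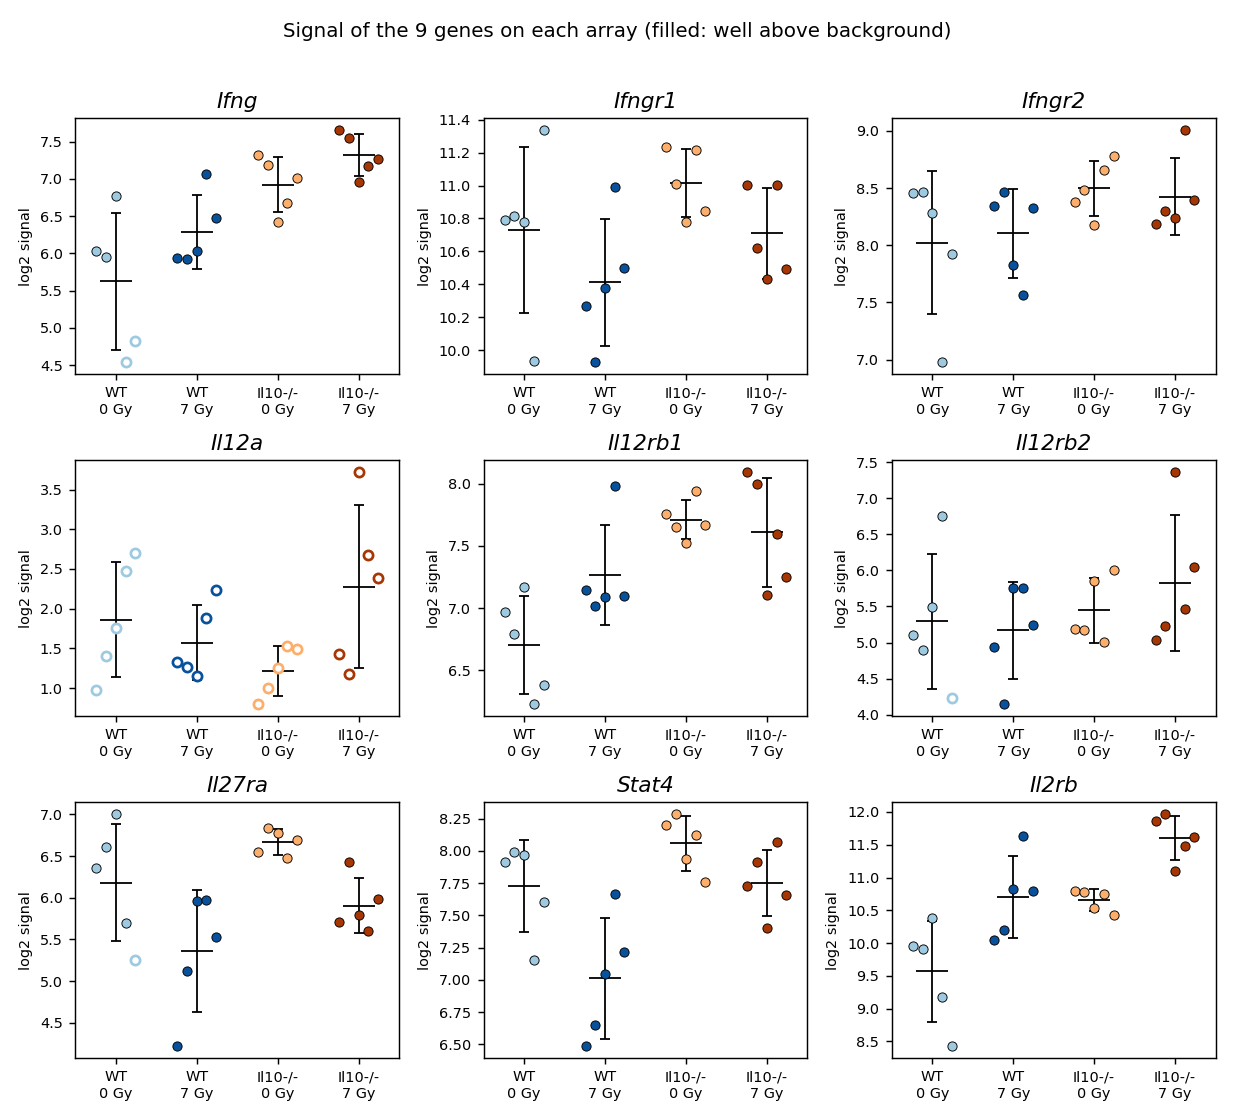
Log2 signal of the main probe of each gene (vertical axes, each with its own range) on the 20 arrays, 5 per group, with replicates 1 to 5 from left to right. The bar is the group mean, the whiskers are 1 SD, and open symbols mark arrays on which the probe was not well above background. *Il2rb* in the mice labelled Il10-/- lay at 10.44 to 10.80 before and at 11.10 to 11.97 after 7 Gy, without overlap.

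The ligand *Ifng* had its larger differences between the genotypes, and none of them was called. Its log2 signal in unirradiated WT mice was 6.03, 5.95, 6.77, 4.54 and 4.83, the last 2 on the arrays of weak signal, where the probe was not well above background. In unirradiated Il10-/- mice it was 7.32, 7.19, 6.42, 6.68 and 7.02. One WT array lay inside the Il10-/- range, and the others lay below it. The difference of 1.30 (SE 0.42), or 2.46-fold, had a limma adjusted p = 0.183 (exact permutation test, 2-sided, p = 0.0238), and Il10-/- mice were higher on 4 of 5 slides. Without the 2 weak arrays it was 0.67 (limma adjusted p = 0.359).

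After 7 Gy *Ifng* stood at 5.94, 5.92, 6.03, 7.07 and 6.47 in WT mice. In irradiated Il10-/- mice it stood at 7.66, 7.55, 6.96, 7.18 and 7.27. Only WT replicate 4 reached into the Il10-/- range. The difference of 1.03 (SE 0.27), or 2.05-fold, was positive on 5 of 5 slides (limma adjusted p = 0.222, exact permutation test, 2-sided, p = 0.0159), and was 0.31 with normexp background correction. The change with dose was 0.66 (95% interval -0.30 to 1.63) in WT mice and 0.40 (-0.12 to 0.91) in Il10-/- mice. In Il10-/- mice the dose difference was positive on 5 of 5 slides, and in WT mice on 2 of 5. Without the weak arrays the WT value was 0.03.

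The other ligand gene among the 9, *Il12a*, rose well above background on 0 of 20 arrays and significantly above it on 1, so its values do not give a level. Its IL-12 partner *Il12b* was well above background on 2 of 20 arrays.

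The interferon-gamma receptor chains were well above background on all 20 arrays and were not tested in limma, because 2 arrays for *Ifngr1* and 3 for *Ifngr2* lay 1.5-fold or more from the gene's median. *Ifngr1*, the ligand-binding chain, averaged 10.73 ± 0.50 (SD, n = 5) and 10.41 ± 0.39 (SD, n = 5) in WT mice at 0 and 7 Gy. In Il10-/- mice it averaged 11.02 ± 0.21 (SD, n = 5) and 10.71 ± 0.28 (SD, n = 5). The dose difference in Il10-/- mice was -0.31, lower on 5 of 5 slides (exact permutation test, 2-sided, p = 0.0714). *Ifngr2*, the signalling chain, ranged from 6.98 to 8.47 in unirradiated WT mice and from 7.57 to 9.01 elsewhere, with differences of -0.07 to 0.47 and exact permutation p from 0.119 to 0.873.

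The IL-12 receptor gave 2 readings for each chain. On the main probe, *Il12rb1* in unirradiated mice was 6.97, 6.79, 7.17, 6.23 and 6.38 in the WT group. In the Il10-/- group it was 7.76, 7.65, 7.52, 7.94 and 7.67, above every WT array. The difference of 1.00 (SE 0.27), or 2.01-fold, had a limma adjusted p = 0.171 (exact permutation test, 2-sided, p = 0.00794, the smallest it can give) and was positive on 5 of 5 slides. In this comparison 2 of the 9 main probes separated the groups in this way, as did 6.71% of all tested probes. Without the weak arrays it was 0.74 (limma adjusted p = 0.223). The second probe, 2021 bases away, gave 0.23 with overlapping groups (exact permutation test, 2-sided, p = 0.333). It was well above background on 5 of 5 arrays of each unirradiated group but on 16 of 20 in all, against 20 of 20 for the main probe. It was not tested in limma, as 2 arrays lay 1.5-fold or more from its median. The 2 *Il12rb1* probes followed each other poorly over the 20 arrays (r = 0.19, a description), and the baseline difference was seen on 1 of them.

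After 7 Gy the main *Il12rb1* probe stood at 7.14, 7.02, 7.09, 7.98 and 7.10 in WT mice and between 7.10 and 8.09 (median 7.60) in Il10-/- mice. The groups overlapped, with a difference of 0.34 (95% interval -0.27 to 0.96). The dose difference was 0.56 (-0.09 to 1.22) in WT mice and -0.10 (-0.62 to 0.42) in Il10-/- mice.

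*Il12rb2*, the chain that recruits Stat4, had a low and scattered signal, from 4.15 to 7.36 on the main probe and from 1.33 to 4.65 on the second, which was well above background on 6 of 20 arrays. The 4 differences of the main probe lay between -0.13 and 0.66, each with an interval that includes 0. The probes lie 244 bases apart and had r = 0.31.

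**Figure D2:**
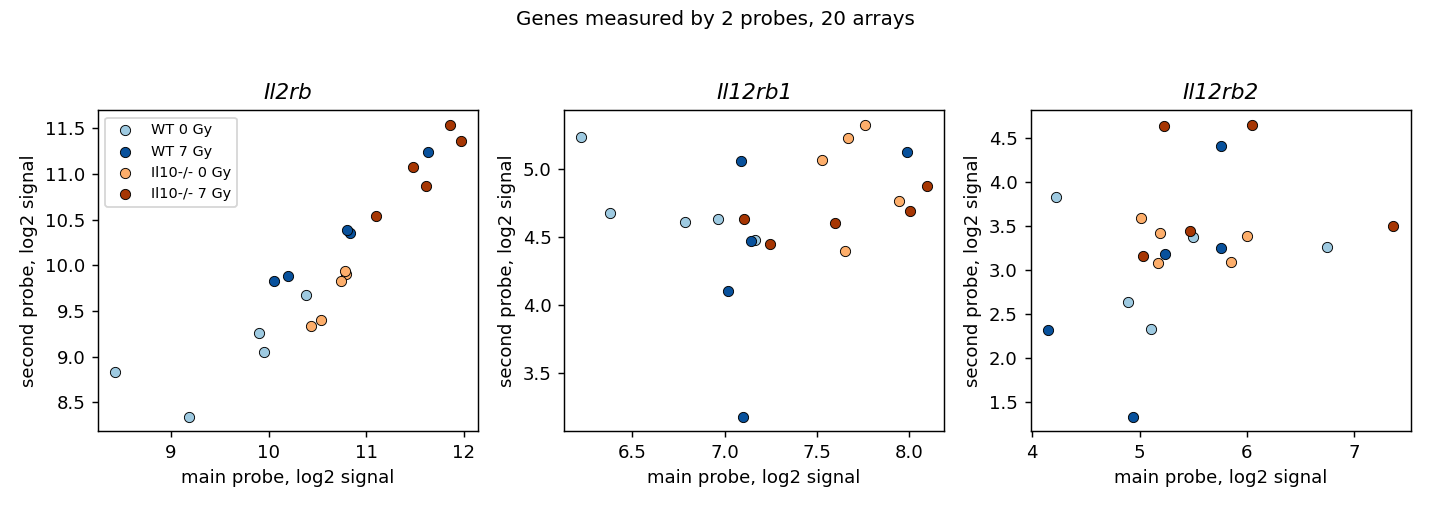
Log2 signal of the second probe (vertical) against the main probe (horizontal) of the 3 genes measured by 2 probes, 1 point per array, 20 arrays coloured by group. The *Il2rb* probes run together (r = 0.92), while those of *Il12rb1* (r = 0.19) and *Il12rb2* (r = 0.31) do not.

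*Il27ra*, the IL-27 receptor chain, and *Stat4*, the transcription factor downstream of IL-12, had lower means after 7 Gy in both genotypes. *Il27ra* in Il10-/- mice was 6.55, 6.84, 6.77, 6.47 and 6.69 before irradiation. After 7 Gy it was 5.70, 6.43, 5.79, 5.60 and 5.99, below every unirradiated array. The difference of -0.76 (SE 0.21) had a limma adjusted p = 0.0207 and was negative on 5 of 5 slides, but its unadjusted p missed 0.001, so it was not called. Groups that do not overlap were found for 2 of the 9 main probes in this comparison, as for 20.4% of all tested probes. In WT mice the means were 6.18 ± 0.71 (SD, n = 5) and 5.36 ± 0.73 (SD, n = 5), with overlapping groups and a difference of -0.82 (SE 0.43, limma adjusted p = 0.188). Without the 2 weak arrays it was -1.29 (limma adjusted p = 0.0477), still not called.

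*Stat4* in WT mice was 7.92, 7.99, 7.97, 7.15 and 7.61 before and 6.49, 6.65, 7.05, 7.67 and 7.22 after 7 Gy. Irradiated replicates 4 and 5 lay inside the range of the unirradiated arrays. The difference was -0.71 (SE 0.31, limma adjusted p = 0.111), and -0.95 (limma adjusted p = 0.0411) without the weak arrays, not called in either case. In Il10-/- mice it was -0.31 (SE 0.20, limma adjusted p = 0.296), negative on 5 of 5 slides. Irradiated Il10-/- mice stood higher than irradiated WT mice by 0.74 (SE 0.26, limma adjusted p = 0.294), on 5 of 5 slides, and by 0.11 with normexp background correction.

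*Il2rb* was the gene with the clearest change. Its main probe in Il10-/- mice gave 10.80, 10.78, 10.53, 10.74 and 10.44 before and 11.85, 11.97, 11.10, 11.48 and 11.62 after 7 Gy. The second probe gave 9.91, 9.94, 9.40, 9.83 and 9.33 before and 11.54, 11.37, 10.54, 11.08 and 10.87 after. No irradiated array of this genotype overlapped an unirradiated one on either probe.
The rise was 0.94 (SE 0.21, limma adjusted p = 0.00847), or 1.93-fold, on the main probe and 1.40 (SE 0.24, limma adjusted p = 0.00231), or 2.64-fold, on the second, and both were positive on 5 of 5 slides. The call on the main probe lies just inside the limit on the unadjusted p: it was lost in 7 of 11 other settings, among them the replicate number, which is the slide, fitted as a block (limma adjusted p = 0.0169), and in 9 of 10 fits that each omitted 1 array. The 1 such fit that kept the call omitted replicate 3 of the irradiated Il10-/- group, its array of lowest signal. The second probe was called in 10 of 10 fits that each omitted 1 array and in 10 of 11 other settings, the exception being normexp background correction.

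In WT mice the main *Il2rb* probe gave 9.96, 9.91, 10.39, 9.18 and 8.43 before and 10.05, 10.20, 10.83, 11.64 and 10.80 after 7 Gy, with overlap. The second gave 9.05, 9.26, 9.67, 8.34 and 8.83 before and 9.83, 9.88, 10.36, 11.24 and 10.38 after, without overlap. The share of all tested probes without overlap is not given for this comparison, so nothing is read from that separation. In the Il10-/- dose comparison, a different one, the share was 20.4%. The differences were 1.13 (SE 0.43, limma adjusted p = 0.0719) and 1.31 (SE 0.35, limma adjusted p = 0.0193), positive on 5 of 5 slides each and not called. Without the weak arrays they were 0.62 (limma adjusted p = 0.244) and 1.01 (limma adjusted p = 0.0599). Between the genotypes the main probe was higher in Il10-/- mice by 1.09 (SE 0.36, limma adjusted p = 0.185) at 0 Gy, without overlap, and by 0.90 (SE 0.32, limma adjusted p = 0.294) at 7 Gy. The second probe gave 0.65 (limma adjusted p = 0.257) at 0 Gy and 0.74 (limma adjusted p = 0.348) at 7 Gy, with overlap at both doses, so the groups at 0 Gy were separate on 1 of 2 probes. Without the weak arrays the values at 0 Gy were 0.57 and 0.35. With normexp background correction the main probe had 0.15 at 7 Gy.

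**Figure D3:**
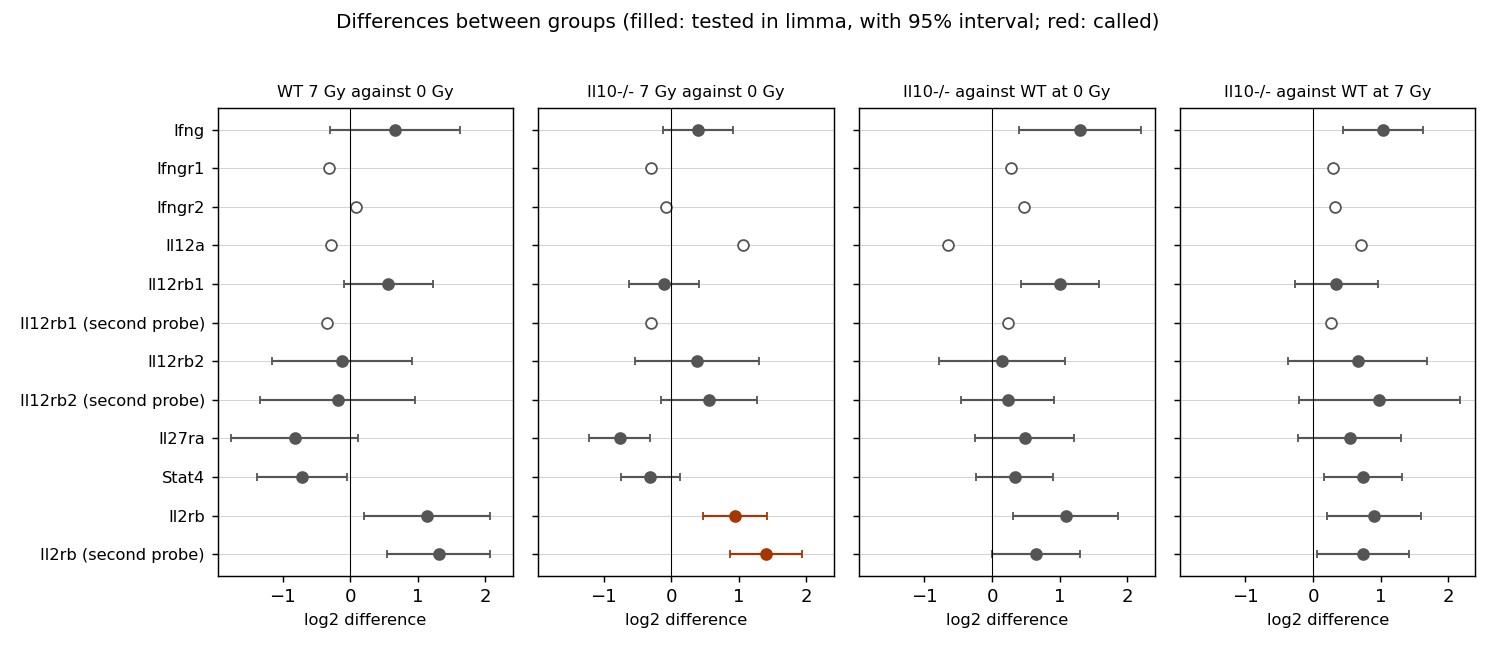
Log2 differences (horizontal axes) of the 12 probes in the 4 comparisons of 5 arrays with 5. Filled points were tested in limma and carry their 95% interval, open points were not tested, and red marks a call. Both *Il2rb* probes in the Il10-/- dose comparison are the called points, at 0.94 and 1.40.

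The response to 7 Gy was not shown to differ between genotypes for any of the 6 tested genes. In 1 limma fit of all 20 arrays, 0 of the 6 were called and 0 had an unadjusted p under 0.05, against 0% of all tested probes called and 7.68% with such a p. The lowest adjusted p was 0.625, for *Il12rb1*, whose difference between the responses was -0.66 (95% interval -1.44 to 0.11). For the main *Il2rb* probe it was -0.19 (-1.19 to 0.82), and for *Ifng* it was -0.27 (-1.33 to 0.80), so that differences of a doubling are not excluded by these intervals.

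*Il12a* being without a measured level, the other 8 genes are compared here. At 7 Gy the mean of the main probe was higher in Il10-/- mice for 8 of 8, with a median difference of 0.60, while the median over all tested probes was 0.0051. At 0 Gy it was also higher for 8 of 8, with a median of 0.48 against 0.013. Without the 2 weak arrays the 8 differences at 0 Gy ran from 0.01 for *Il27ra* to 0.74 for *Il12rb1*. *Ifngr2* had 0.09, *Stat4* 0.10 and *Ifngr1* 0.22 there. The median over all tested probes at 0 Gy was 0.36 with the array median subtracted and 0.46 with normexp. The values 0.48 and 0.013 therefore hold for the main scaling. With normexp background correction *Ifngr1*, *Ifngr2* and *Il12rb1* were lower at 7 Gy, where the median over all tested probes was -0.50. The 2 comparisons share no arrays but share slides. Marker lists of blood cell types did not all go the same way between the genotypes. Of 17 T cell markers, all passing the background filter, 14 were higher in Il10-/- mice at 0 Gy (median 0.41) and 16 at 7 Gy (median 0.69). Of 13 NK cell markers, all passing, 12 and 13 were higher (medians 0.55 and 0.54). The B cell list went the other way. Of its 9 markers passing the background filter, 0 were higher in Il10-/- mice at 0 Gy (median -0.52) and 2 at 7 Gy (median -0.55). None of the tested T cell, NK cell and B cell markers was called by limma between the genotypes at either dose. The part of these lists in the differences of the 9 genes was not tested.

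With dose the T cell and NK cell markers split. The T cell list had a median of -0.52 in WT and -0.47 in Il10-/- mice, with 3 and 4 of 17 markers positive. Of 13 tested, 2 were called lower and 1 higher in each genotype. Of all tested probes 4.33% were called lower and 6.7% higher with dose in WT mice, and 5.59% and 5.62% in Il10-/- mice. *Cd8a*, a coreceptor chain of cytotoxic T cells, fell by 3.12 and 1.88, its partner *Cd8b1* had -0.52 and -0.74 and was not called, and *Cd247*, the zeta chain of the T-cell receptor complex, rose by 1.22 and 1.02. The summed level of the list, as log2, ran from 13.49 to 14.26 in unirradiated and 12.81 to 13.96 in irradiated WT mice. In Il10-/- mice it ran from 14.13 to 14.27 and from 13.50 to 14.05. The NK list had a median of 0.36 in WT and 0.22 in Il10-/- mice, with 9 and 10 of 13 markers positive. *Gzmb*, a cytotoxic granule protease, was the 1 of 12 tested that was called, and it rose by 1.75 and 1.28, while the receptor genes *Klrd1* (-0.22 and -0.39) and *Klrg1* (-0.17 and -0.49) had negative values. The summed level of the NK list ran from 12.96 to 13.70 and from 13.72 to 14.59 in WT mice, and from 13.70 to 14.53 and from 14.13 to 15.03 in Il10-/- mice. The dose differences of *Il2rb* had the sign of the NK list median, and those of *Il27ra* and *Stat4* the sign of the T cell list median, and the part of these lists in either was not tested. Of 9 neutrophil markers 5 were called higher in unirradiated Il10-/- than in unirradiated WT mice (list median 1.62), as 0.489% of all tested probes were. Of 7 monocyte markers, 6 of them tested, 2 were called higher with dose in each genotype, with 1 lower in WT and 2 lower in Il10-/- mice. Of 8 erythroid markers, 7 of them tested, 3 were called lower in each, with 1 higher in WT mice. The shares of all tested probes given with the T cell list hold for these counts and for the dose counts of liver and heart muscle genes below. Transcripts of liver and heart muscle, which blood cells do not make in quantity, differed widely between arrays of a group and moved with dose. Of 14 liver genes passing the background filter 14 were positive with dose in each genotype, with medians of 5.95 in WT mice, where 7 were called higher, and 1.78 in Il10-/- mice, where 0 were called by limma. Of 5 heart muscle genes 4 were positive in WT mice (median 3.54) and 5 in Il10-/- mice (median 5.98), where 3 were called higher. The summed level of 15 liver genes ran from 12.68 to 19.86 in irradiated WT mice, and that of 10 heart muscle genes from 8.56 to 15.80 in irradiated Il10-/- mice. Between the genotypes 14 of 14 liver genes were higher in Il10-/- mice at 0 Gy (median 2.76) and 1 at 7 Gy (median -1.15). Of the 5 heart muscle genes 0 were higher at 0 Gy (median -0.71) and 5 at 7 Gy (median 1.43). In these comparisons 0 were called by limma. The part of these transcripts in the values of the 9 genes was not tested.

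The genes whose pattern was most like the members were sought among 17644 genes by Pearson's r over the 20 arrays, which share groups and slides, as a description. *Ifng* ran closest to *Xcl1*, a chemokine of NK cells and activated T cells (r = 0.95), and *Cxcr3*, a Th1 chemokine receptor (r = 0.95). *Il12rb1* ran closest to *Zap70*, the T-cell receptor kinase (r = 0.92), and *Clnk*, an adaptor protein (r = 0.91). *Il2rb* ran closest to *Serpina3f* (r = 0.94) and a transcript without a gene symbol (r = 0.94). *Il27ra* ran closest to *Bcl11b*, a T-lineage transcription factor (r = 0.94), and *Rasal3*, a Ras GTPase-activating protein (r = 0.92). *Stat4* ran closest to *Rasal3* (r = 0.94) and *Sh2d1a*, the SAP adaptor of T and NK cells (r = 0.94). *Ifngr1* ran closest to *Adgrg5* (r = 0.86) and *Cd3g* (r = 0.86), and *Il12rb2* to *4933411E08Rik* and *Cetn1* (r = 0.90 each). Among the 8 genes that passed the background filter the highest correlations were those of *Ifng*, *Il12rb1* and *Il2rb* with each other (r = 0.81 to 0.90), followed by *Il27ra* with *Stat4* (r = 0.81) and *Ifngr1* with *Stat4* (r = 0.79), and the next pair had r = 0.52.

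Of the other ligands of the axis, 5 of 9 were tested. *Il15*, the other cytokine that uses the *Il2rb* chain, was called higher after 7 Gy in Il10-/- mice, by 0.88 (SE 0.19, limma adjusted p = 0.00681), and had 0.54 (limma adjusted p = 0.509) in WT mice. The difference between the *Il15* responses was 0.34 (SE 0.62, limma adjusted p = 0.853). *Il18* had larger dose differences, 1.64 (SE 0.41, limma adjusted p = 0.014) in WT and 1.00 (SE 0.23, limma adjusted p = 0.00899) in Il10-/- mice. It was not called in either genotype. Neither IL-27 gene was called in any comparison, with dose differences of 0.03 and 0.25 for *Il27* and -0.26 and -0.53 for *Ebi3* in WT and Il10-/- mice. Of 8 other receptor chains 5 were tested. *Il18r1*, a receptor chain of the interferon-gamma-inducing cytokine IL-18, was called in 2 comparisons. It was higher in unirradiated Il10-/- than in unirradiated WT mice by 1.90 (SE 0.28, limma adjusted p = 0.0318) and fell by 1.47 (limma adjusted p = 0.00175) with dose in Il10-/- mice. Its dose difference in WT mice was -0.85 (limma adjusted p = 0.0524), not called. The genotype difference at 7 Gy was 1.28 (limma adjusted p = 0.206), also not called. Between its responses the difference was -0.62 (limma adjusted p = 0.63). Of 8 Jak kinases and Stats, which carry the signal from these receptors, 4 were tested and 0 were called by limma in any 2-group comparison.

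Of 6 Th1-associated transcription factors 5 were tested, and *Irf8*, which is also a B-cell and monocyte factor, was the one called, having fallen by 1.86 in WT and by 1.88 in Il10-/- mice. The B cell marker list had a median of -3.00 and -3.42 in the same comparisons, and its part in this was not tested. *Tbx21*, the factor that defines Th1 cells, had 0.32 and 0.28 with dose and was not called. Of 6 feedback inhibitors 5 were tested. *Socs2* rose in both genotypes, by 1.43 and 1.25, and *Cish*, which is induced by Stat5, was called in WT mice at 1.51 and had 0.86 (limma adjusted p = 0.0211) in Il10-/- mice. The difference between the *Cish* responses was -0.65 (limma adjusted p = 0.625).

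Among the genes that interferon-gamma is known to induce, several were called with dose, while *Ifng* was not. Of 11 listed genes 10 were tested, and 4 were called higher and 1 lower in WT mice, with a median of 1.37 over the 10, and 5 higher and 1 lower in Il10-/- mice, with a median of 1.24. Of all tested probes 6.7% were called higher and 4.33% lower in WT mice, and 5.62% and 5.59% in Il10-/- mice, with medians of -0.08 and 0.14. The guanylate-binding protein gene *Gbp2* rose by 2.32 (SE 0.40) in WT and by 1.71 (SE 0.29) in Il10-/- mice. The GTPases *Gbp3*, *Irgm1* and *Igtp* rose by 1.29 to 1.84 over both genotypes. *Cd274*, the checkpoint ligand PD-L1, was called in Il10-/- mice at 1.51 and had 1.10 (limma adjusted p = 0.0215) in WT mice. The difference between its responses was 0.41 (limma adjusted p = 0.681). *Ciita*, the MHC class II transactivator of B cells and induced macrophages, fell by 1.65 and by 1.17. None of the 10 was called between the genotypes by limma at either dose, and type I interferons induce several of them too.

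**Figure D4:**
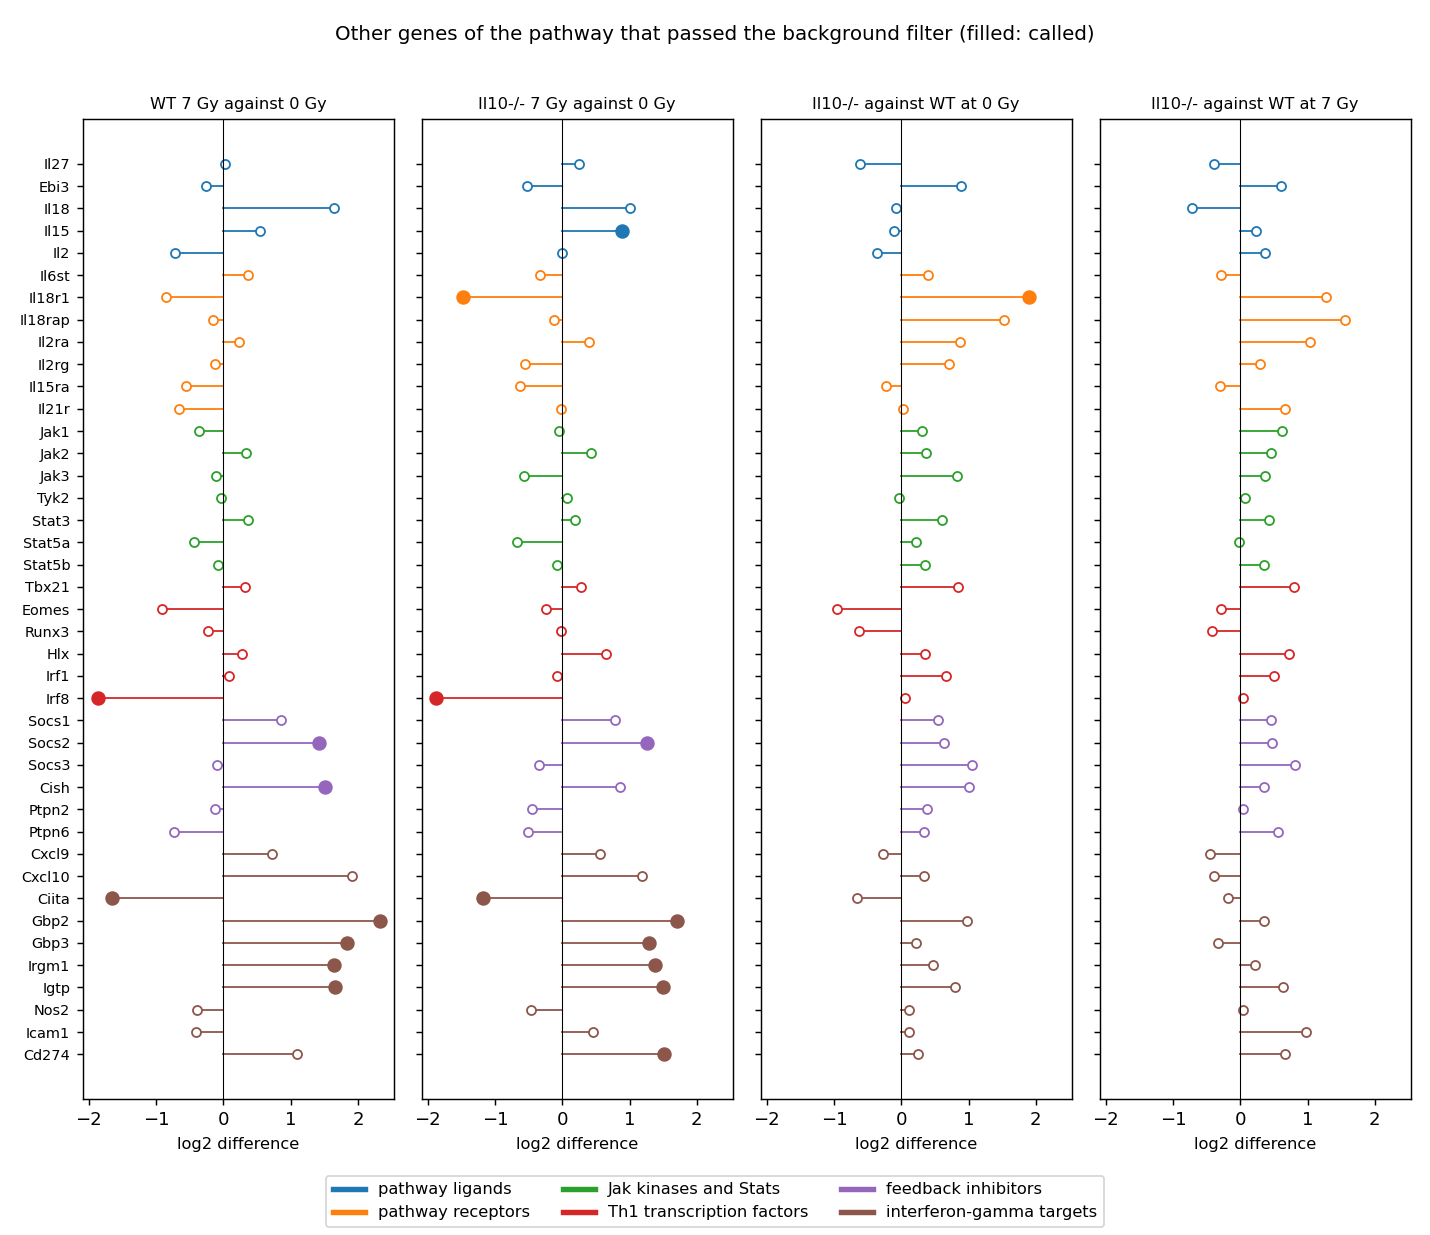
Log2 differences (horizontal axes) of 41 other genes of the axis that passed the background filter, in the 4 comparisons of 5 arrays with 5, coloured by list. Filled points were called. The called points lie in the 2 dose comparisons, mostly among the interferon-gamma targets, apart from *Il18r1*, called also at 1.90 in unirradiated Il10-/- against WT mice.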

How the data were processed

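RNA from 20 whole blood samples was hybridised to one-colour arrays, and the sample titles gave the groups and replicate numbers. For each array the authors deposited Agilent Feature Extraction output, whose processed intensity is background-subtracted and detrended per spot and not normalized between arrays. The study's notes name version 10.7 of that software, and the file headers name 12.0.2.2. A second deposited file holds the authors' processed log2 values of 16909 features. It matches the scaling used here to within 0.0033 and served as an alternative.

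After a log2 transform, spots marked as non-uniform outliers were dropped, the remaining spots of a probe were averaged, and each array was shifted by its median log2 distance to replicate 3 of the unirradiated Il10-/- mice over unmarked probes. A probe was removed if at least 25% of its values were marked as outliers or as not above background (39429 to 23069 probes), and probes were kept when at least 20% of arrays differed 1.5-fold or more from the probe median (16575 probes). The study's methods name these filters and the call threshold, p below 0.001 with a false discovery rate under 10%.

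Each comparison of 10 arrays was fitted with limma 3.58.1 in R 4.3.3, where eBayes moderates the variances, and the difference between responses in 1 fit of 20 arrays. Probes outside the filters were compared by exact permutation tests, 2-sided, of 5 arrays against 5, where the smallest possible p is 0.00794. Figures were drawn in Python 3.11.15 with matplotlib 3.10.9. With 5 arrays a group, their number sets the precision. Where nothing says otherwise, p-values measure the spread between these samples.

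Named genes are the 9 members with all probes (main probe: the brightest that passed the background filter), *Il10*, up to 3 called genes per pathway list and comparison, and the 2 genes most alike each member. Other values of list genes were named after they were seen. The members and lists were chosen with earlier results of these data known. The alternatives were 4 other normalizations, the authors' table, both filters, the slide as a block, all groups in 1 fit, another threshold, replicates 1 and 2 averaged, and each array left out. The fit was first tested on simulated data. The genes most alike *Ifngr2* and the values of 1 list gene are not reported or drawn here.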

Additional observations from a re-analysis of the deposited data

Results flagged for a closer look

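Of 36 groups of 5 arrays examined, 1 for each of the 9 main probes in each of the 4 groups, 2 held an array whose gap to its nearest neighbour exceeded Dixon's 95% limit of 0.71 of the group's range, and chance gives about 1 in 20. Irradiated WT replicate 4 was the highest of its group for *Il12rb1* (7.98, gap 0.873 of the range), and irradiated Il10-/- replicate 4 was the highest of its group for *Ifngr2* (9.01, gap 0.747).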

How the results depend on the processing

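The call of *Il2rb* on its main probe in irradiated against unirradiated Il10-/- mice was the one call among the 9 genes, and it is weak. The number of genes called there was 0 with the array median subtracted, with the 75th percentile subtracted, with quantile normalization, with normexp background correction, with the replicate block, with all groups in 1 fit and with replicates 1 and 2 averaged, 1 with the authors' values and without the filters, 2 (*Il2rb* and *Il27ra*) with a false discovery rate under 5% alone, and 0 to 1 with 1 array left out. The replicate block changed no other call. In the 4 other comparisons the count by main probe was 0 under every alternative run, and the second *Il2rb* probe was called in WT mice with all groups in 1 fit and with a false discovery rate under 5% alone. Over all probes the calls ran from 343 to 4118 (main 1828) with dose in WT mice, from 1 to 4190 (1858) in Il10-/- mice, from 0 to 218 (87) between unirradiated and from 0 to 10 (4) between irradiated genotypes over the planned settings other than leaving out an array, the lowest with normexp. The share of calls that were higher went from 60.8 to 50.4% with quantile normalization and to 94.2% with normexp in WT mice, and from 50.2 to 36% with the array median in Il10-/- mice. The median over all tested probes in the WT dose comparison moved from -0.08 to -0.29 with the 75th percentile and to 0.58 with normexp, and between unirradiated genotypes from 0.01 to 0.36 with the array median and to 0.46 with normexp.

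Differences that changed sign were uncalled ones, and the cause was not tested. With dose in WT mice, *Ifngr2* was -0.055 with the 75th percentile, -0.18 with quantile normalization and -0.30 without the 2 weak arrays, *Il12rb2* was 0.029 with quantile normalization and 0.0031 without the weak arrays, and *Ifngr1* was 0.37 with normexp. With dose in Il10-/- mice, normexp gave -0.085 for *Ifng* and -0.0099 for *Il12rb2*. Between irradiated genotypes, normexp gave -0.44 for *Ifngr1*, -0.31 for *Ifngr2*, -0.069 for *Il12rb1* and -0.026 for the second *Il2rb* probe. Normexp also shrank differences that kept their sign: with dose to -0.074 for *Stat4*, -0.25 for *Il27ra* and 0.17 for *Ifng* in WT mice and to 0.50 for *Il2rb* in Il10-/- mice, and between unirradiated genotypes to 0.56 for *Ifng* and 0.57 for *Il12rb1*. The difference between the responses was 0.093 for *Il2rb* with quantile normalization and, without the weak arrays, 0.32 for *Il2rb* and 0.36 for *Ifng*. With 1 array left out, *Ifngr2* ran from -0.18 to 0.22 with dose in WT and from -0.22 to 0.0002 in Il10-/- mice, *Il12rb2* from -0.39 to 0.24, from -0.0026 to 0.58 and from -0.11 to 0.52 with dose in WT mice, with dose in Il10-/- mice and between unirradiated genotypes, *Il12rb1* from -0.22 to 0.026 with dose in Il10-/- mice, and the difference between the responses from -0.55 to 0.0049 for *Ifng* and from -0.39 to 0.10 for *Il2rb*.

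Pairing by replicate number, which is the slide, was checked in the residuals: same-numbered arrays of 2 groups had r from -0.67 to 0.69, and in 0 of the pairs of groups did all 5 numbers exceed 0.1, so the numbers were not taken to pair mice. The irradiated WT and irradiated Il10-/- groups had the highest mean r, 0.41, running from -0.03 to 0.69, with 4 of 5 over 0.1. The main fits held no slide term, and the slide as a block was run as an alternative. Signal over background limits *Il12a*, whose values do not give a level, the second *Il12rb2* probe, and *Ifng* on the 2 weak arrays of the unirradiated WT group.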
